A study of Bos taurus with 18 samples.

Results

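Endometrial gene expression on day 7 of an untreated estrous cycle was compared between the cows of 2 study arms before any study compound had been given. Cows A, B and C belonged to the 17-OHPC/P4 arm and cows D, E and F to the P4 arm. The samples were taken by arm, cycle and day as the labels state them, and they are 6 of the 18 libraries of the study, 3 in each arm. All 6 animals were Holstein cattle whose ovulation had been synchronized with the Ovsynch hormone protocol, with the day of estrus as day 0. In a second synchronized cycle, cows A to C later received a depot of 100 mg of 17α-hydroxyprogesterone caproate (17-OHPC) with 10 mg of progesterone (P4) on day 4, and cows D to F received 100 mg of P4. Each cow had also been sampled on day 4 of the untreated cycle and was sampled again on day 7 of the treated cycle. The comparison asks how alike the arms were at baseline, and since no cow was in both arms, the arm and its 3 animals cannot be told apart.

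Day 7 lies in the early luteal phase, when the corpus luteum that forms after ovulation releases progesterone into the blood. Progesterone acts through its nuclear receptor PGR and turns the uterine lining toward secretion of the proteins, lipids and sugars that feed the embryo before it attaches. Secreted proteins enter the endoplasmic reticulum (ER), where chaperones fold them and the oligosaccharyltransferase complex attaches sugar chains, and they leave for the Golgi in coated vesicles. The unfolded protein response is the program that raises ER chaperones when folding demand grows.

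RNA came from a cytobrush turned in the horn that adjoins the ovary with the corpus luteum, so each library holds whatever cells the brush removed. The 17-OHPC/P4 arm had 32818851 to 39463921 counts per library and the P4 arm 30784249 to 37171071, with 22115 to 23205 genes detected in the 17-OHPC/P4 arm and 22012 to 22421 in the P4 arm. The epithelial marker EPCAM was present in every library (460 to 499 CPM, counts scaled to the library's TMM-adjusted size, in the 17-OHPC/P4 arm and 383 to 592 CPM in the P4 arm). The libraries did not group by arm. The closest pair was B with F, from opposite arms (Euclidean distance of log2 CPM 84.1), followed by D with E (85.7), and the median distance was 131 within arms and 136 between them. The first principal component, with 42.1% of the variance, set cows B and F apart from cows D and E. The library of cow C stood apart by blood: its 8 red blood cell markers summed to 4188 CPM, against 4.98 to 10.4 CPM in the 5 other libraries.

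One gene passed the test. The gene ENSBTAG00000071406, for which the deposited table gives no symbol, had 58.1, 71.9 and 86.5 CPM in cows A, B and C, against 436, 450.2 and 835 CPM in cows D, E and F. The arms did not overlap, and the lowest cow of the P4 arm lay far above the highest cow of the 17-OHPC/P4 arm. The gene was lower in the 17-OHPC/P4 arm, with means of 72.2 ± 14.2 CPM in the 17-OHPC/P4 arm and 574 ± 226 CPM in the P4 arm (SD, n = 3 each). Its log2 fold change was -2.99 ± 0.36 (SE; edgeR quasi-likelihood test, Benjamini-Hochberg adjusted p = 0.0110), with a 95% interval from -3.75 to -2.23. That gene was the only call among 19638 tested, or 0.00509%, at an adjusted p under 0.05.

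The same gene lay apart in the other samplings of the same cows. On day 4 it had 51.2, 118 and 97.6 CPM in cows A to C, against 459, 453 and 449.9 CPM in cows D to F (log2 fold change -2.35 ± 0.35, adjusted p = 0.00895). In the treated cycle it had 35.7, 41.7 and 71.6 CPM in the 17-OHPC/P4 arm and 507, 431 and 534 CPM in the P4 arm (-3.30 ± 0.36, adjusted p = 0.00381). All 9 libraries of cows A to C lay below all 9 of cows D to F. The call on day 7 was lost without the day 7 library of cow A, B or C (adjusted p = 0.156, 0.147 and 0.0821), and in fits of the 6 day 7 libraries alone (0.639) or of the 12 untreated libraries (0.107).

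**Figure D1:**
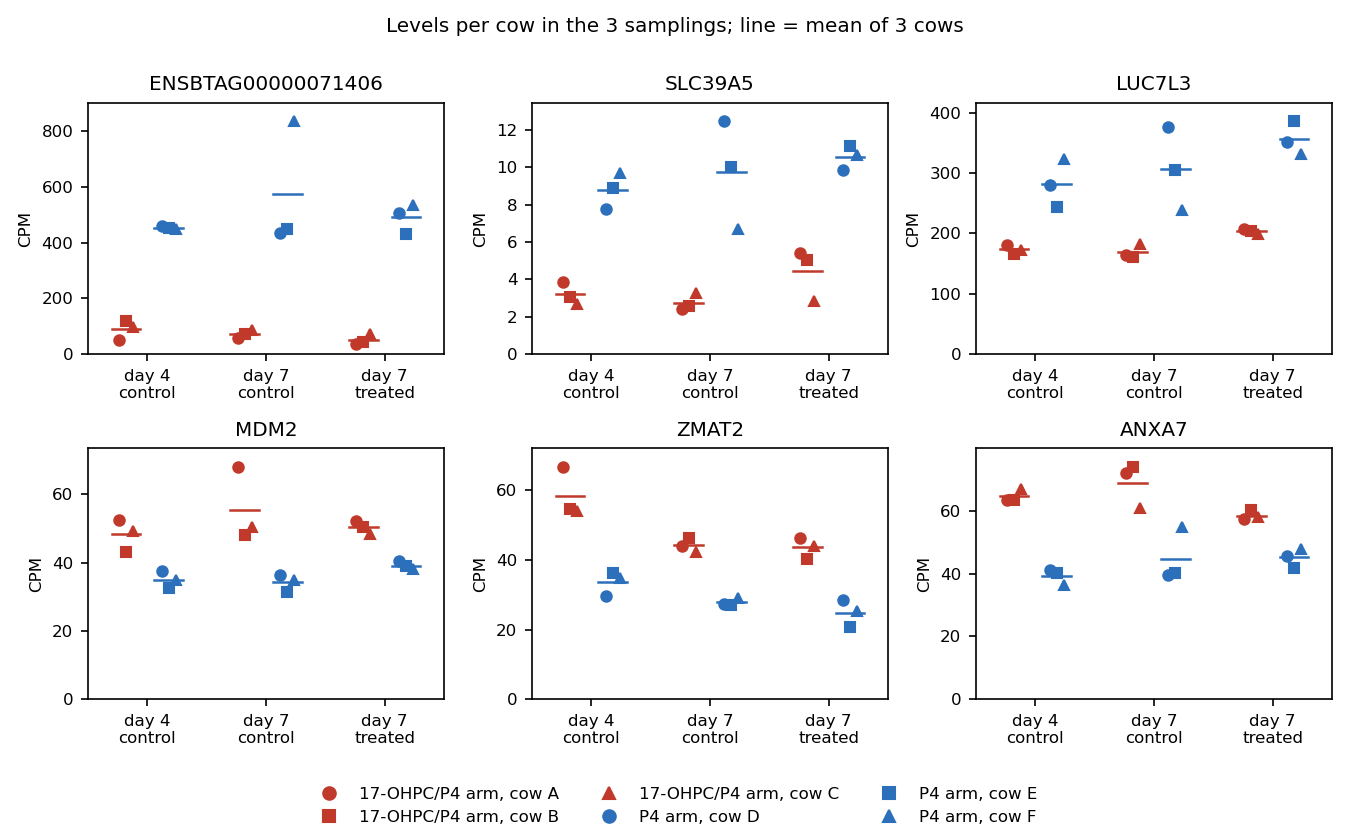
CPM of 6 genes per cow on day 4 and day 7 of the untreated cycle and day 7 of the treated cycle, with 17-OHPC/P4 arm cows in red at the left of each pair, P4 arm cows in blue at the right, and a line at the mean of 3 cows. In each of the 6 genes all 9 libraries of 1 arm lie beyond all 9 of the other, and ENSBTAG00000071406 was the only gene of these to pass the test on untreated day 7.

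Below that gene the values thinned out quickly. At an adjusted p under 0.1 there were 23 genes, 4 with higher and 19 with lower values in the 17-OHPC/P4 arm, and 16 of the 23 had no symbol. Before adjustment, 944 genes (4.81%) had higher and 1144 (5.83%) lower values at p under 0.05. The typical gene could be placed only to within 0.93 on the log2 scale on either side (median reach of the 95% interval), and the biological coefficient of variation was 51.4%. The count of calls also rested on the tool and on cow F: DESeq2 called 336 genes, and edgeR called 264 when the day 7 library of cow F was left out.

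None of the 10 symbols with the smallest p among the genes with higher values passed the test, and their adjusted p ran from 0.125 to 0.154. MDM2, the ubiquitin ligase that holds p53 in check, had 68.1, 48.1 and 50.4 CPM in the 17-OHPC/P4 arm, against 36.5, 31.3 and 35.0 CPM in the P4 arm. Its log2 fold change was 0.70 ± 0.14 (adjusted p = 0.125). ZMAT2, a zinc finger protein of the spliceosome, had 44.1, 46.2 and 42.1 CPM in cows A to C and 27.4, 27.0 and 29.2 CPM in cows D to F (0.66 ± 0.14, adjusted p = 0.142). In both genes the arms did not overlap. The ubiquitin ligase CBL, which turns off receptor tyrosine kinases, had 11.2, 9.46 and 11.1 CPM in the 17-OHPC/P4 arm and 4.19, 5.61 and 5.07 CPM in the P4 arm (1.10 ± 0.24, adjusted p = 0.142).

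The others of these 10 were apart as well. The transcription factors PLAGL2 (1.12 ± 0.24) and ATF7 (0.80 ± 0.18), the annexin ANXA7 (0.62 ± 0.14), CASTOR2 of the arginine sensor family (1.01 ± 0.23), the lysosomal trafficking subunit BLOC1S3 (0.72 ± 0.16) and the deSUMOylating enzyme DESI1 (1.13 ± 0.26) each had no overlap between the arms. PABPC4L, of the poly(A)-binding protein family, had the largest difference of the 10 at 2.47 ± 0.56, from low levels of 1.43 to 4.32 CPM in the 17-OHPC/P4 arm and 0.358 to 0.588 CPM in the P4 arm.

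The 10 symbols with the smallest p among the genes with lower values did not pass either (adjusted p 0.0695 to 0.126). SLC39A5, a zinc importer, had 2.40, 2.60 and 3.26 CPM in the 17-OHPC/P4 arm and 12.5, 10.0 and 6.72 CPM in the P4 arm, with a log2 fold change of -1.82 ± 0.30 (adjusted p = 0.0695). SSUH2 had 87.1, 60.8 and 43.8 CPM in cows A to C, against 525, 368 and 181 CPM in cows D to F (-2.49 ± 0.47, adjusted p = 0.0864). OSTM1, the partner subunit of the lysosomal chloride transporter CLCN7, had 82.7, 69.2 and 65.3 CPM in cows A to C and 414, 231 and 221 CPM in cows D to F (-2.00 ± 0.39, adjusted p = 0.1004). Each of these separated the arms without overlap, with cow F nearest to the 17-OHPC/P4 arm.

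LUC7L3, a splicing factor that works with the U1 particle, had 164, 162 and 183 CPM in the 17-OHPC/P4 arm and 375, 305 and 239 CPM in the P4 arm (-0.86 ± 0.17, adjusted p = 0.106). Its arms did not overlap. TMEM238 (-1.07 ± 0.20) and TMEM88, which binds the WNT signal protein Dishevelled (-2.77 ± 0.51 from 0.0597 to 1.003 CPM), and a row named EEF1D (-2.26 ± 0.40) were further members of the 10. The EEF1D row held only 0.480 to 4.37 CPM, and reads shared with a near copy of the gene cannot be traced here. The last 3 of the 10, SELENOF, TMEM258 and CNIH1, work in or beside the ER and are given with the genes of that pathway. Leaving out the day 7 library of cow F brought 15 of these 20 symbols to an adjusted p under 0.05, and DESeq2 brought all 20 there. The 20 were chosen by their p in this same comparison, so their lack of overlap is partly built in.

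**Figure D2:**
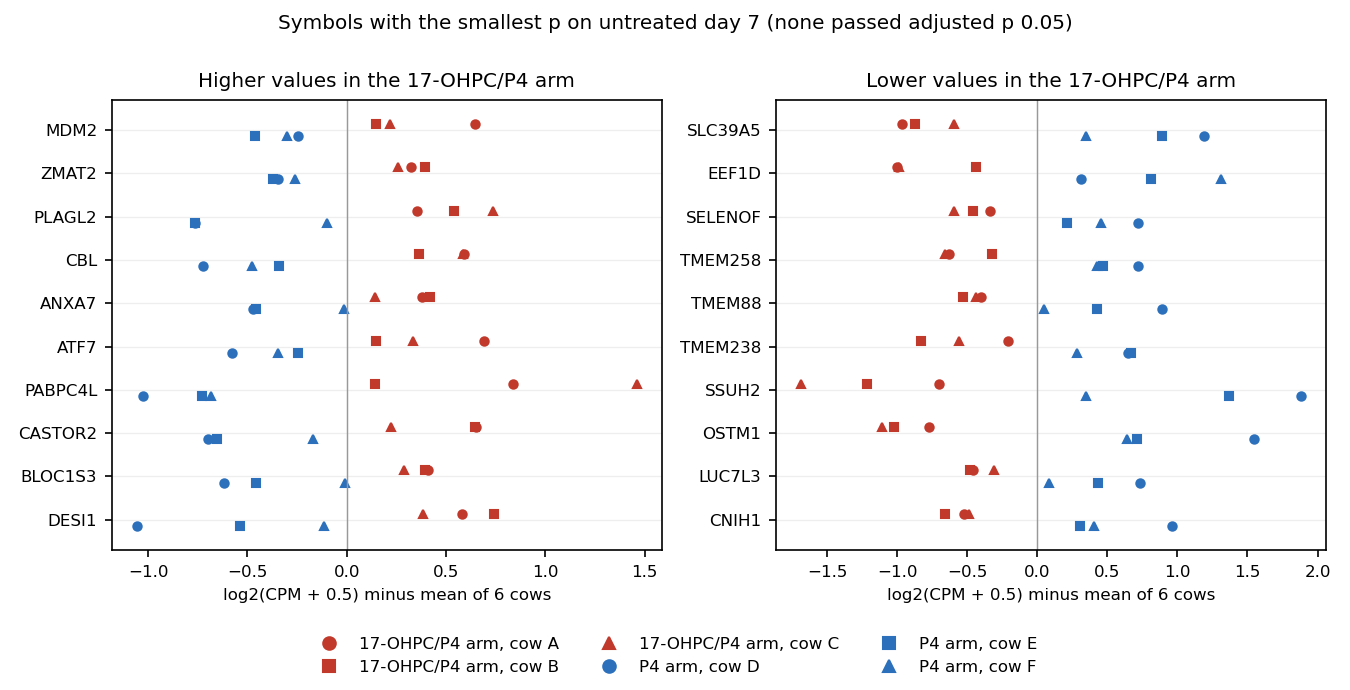
log2(CPM + 0.5) minus the mean of the 6 cows for the 10 symbols with the smallest p among higher values (left) and among lower values (right) on untreated day 7, with 17-OHPC/P4 arm cows in red above P4 arm cows in blue. The arms are apart in all 20 genes, which is partly built in by the choice. Cow F lies nearest to the 17-OHPC/P4 arm in several (ANXA7, BLOC1S3, LUC7L3), and none of the 20 passed the test.

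Many genes of the ER folding machinery had lower values in the 17-OHPC/P4 arm, though none passed the test. Of 23 genes of the unfolded protein response, all 23 were tested, 20 had a log2 fold change below 0, and the median was -0.48, against 0.06 over all genes. In 14 of the 23 (60.9%) every cow of the 17-OHPC/P4 arm lay below every cow of the P4 arm, whereas 6.8% of all genes tested did so. All members of a list were read in the same cows and may move together, so such a share does not count independent separations. That limit holds for the shares of the other lists too. The share of 60.9% was the largest in either direction among the 35 lists, and it was not tested. The 6 of the 23 with p under 0.05 before adjustment were DNAJB9, MANF, CANX, DNAJB11, CRELD2 and HSPA5, with adjusted p from 0.171 to 0.465.

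DNAJB9, a co-chaperone of the ER lumen, had 32.8, 27.0 and 29.6 CPM in cows A, B and C and 147, 87.8 and 74.9 CPM in cows D, E and F. Its log2 fold change was -1.79 ± 0.43 (adjusted p = 0.171), and the arms did not overlap. HSPA5, the main ER chaperone (BiP), had 527, 725 and 508 CPM in the 17-OHPC/P4 arm and 1223, 1131 and 880.3 CPM in the P4 arm (-0.88 ± 0.40, adjusted p = 0.465). The secreted ER protein MANF had 50.5, 63.3 and 40.7 CPM in the 17-OHPC/P4 arm, against 145, 130 and 104 CPM in the P4 arm (-1.30 ± 0.38, adjusted p = 0.234). HSPA5 and MANF were likewise clear of overlap.

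The lectin chaperone CANX, at 987, 948 and 1070 CPM in cows A to C and 2299, 2471 and 1344 CPM in cows D to F, and its soluble partner CALR, at 1039, 1085 and 787 CPM in cows A to C and 1765, 1819 and 1486 CPM in cows D to F, also did not overlap. Nor did the chaperones HSP90B1 and HYOU1, the disulfide isomerases PDIA4 and PDIA6, or DNAJC3, SDF2L1 and SEL1L. The regulators of the response are given separately. The transcription factor XBP1 had 273, 315 and 223 CPM in the 17-OHPC/P4 arm and 371, 215 and 308 CPM in the P4 arm, with overlap (-0.14 ± 0.31). ATF6, the ER stress sensor, was at 33.8 to 36.5 CPM in the 17-OHPC/P4 arm and 29.8 to 38.8 CPM in the P4 arm (0.03 ± 0.27). DDIT3, the factor CHOP, was at 3.85 to 4.49 CPM in the 17-OHPC/P4 arm and 3.19 to 6.16 CPM in the P4 arm. ATF4 lay the other way without overlap, at 217 to 276 CPM in the 17-OHPC/P4 arm and 181 to 213 CPM in the P4 arm (0.34 ± 0.17, adjusted p = 0.476).

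**Figure D3:**
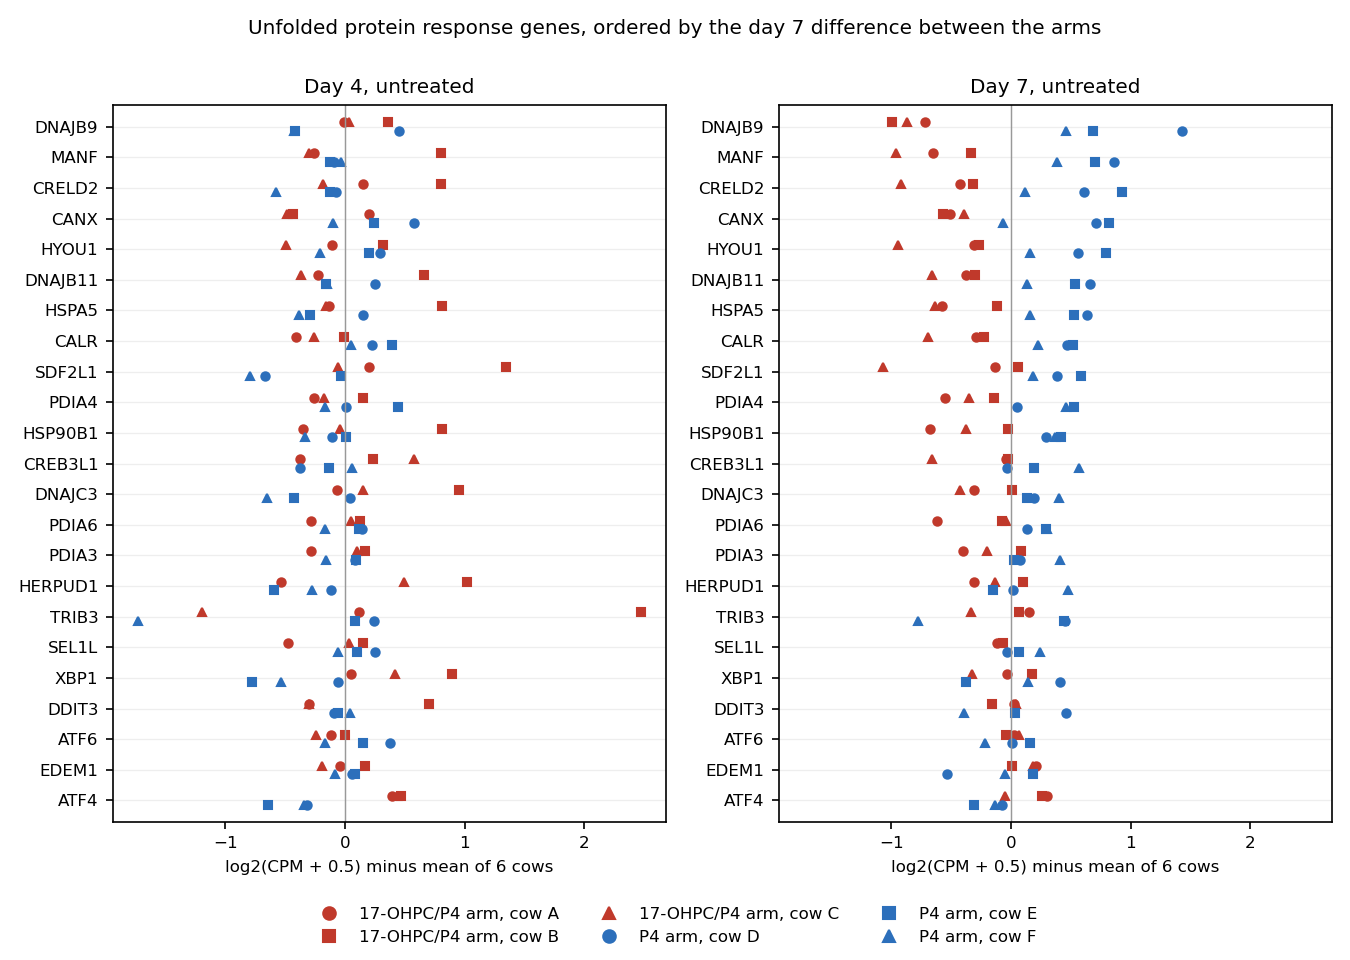
log2(CPM + 0.5) minus the mean of the 6 cows for 23 unfolded protein response genes on day 4 (left) and day 7 (right) of the untreated cycle, with 17-OHPC/P4 arm cows in red above P4 arm cows in blue. On day 7 the red points lie left of the blue ones without overlap in 14 genes, while on day 4 this held for 1 gene and cow B had the highest value in many.

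The same list was set beside the day 4 samples of the same cows. On day 4, 1 of the 23 genes lay lower without overlap (15.5% of all genes did), 14 of the 23 had a log2 fold change above 0 and the median was 0.21. The only call of the list was on that day and upward: ATF4 was higher in the 17-OHPC/P4 arm, at 258, 271 and 266 CPM in cows A to C, against 157, 125 and 155 CPM in cows D to F (0.86 ± 0.17, adjusted p = 0.0244). The mean level of the list in log2 CPM on day 7 was 6.87, 7.02 and 6.72 in cows A, B and C, against 7.49, 7.49 and 7.30 in the P4 arm cows. From day 4 to day 7 it moved by 0.06, -0.49 and -0.13 in cows A, B and C and by 0.49, 0.62 and 0.67 in the P4 arm cows. For DNAJB9 the difference of these changes between the arms was -2.00 ± 0.60 (edgeR quasi-likelihood adjusted p = 0.535). Over all genes, 0 of 19638 (0%) passed an adjusted p under 0.05 for that difference, 1514 had p under 0.05 before adjustment, and DESeq2 called 80. These fits, that of DNAJB9 included, held no term for the cow, although both days came from the same cows. With the cow as a fixed block in edgeR, 0 genes passed and 2146 had p under 0.05 before adjustment. In the treated cycle, no gene of the list lay lower without overlap (7.08% of all genes did), and the list median was -0.41. There, compound and animals cannot be told apart.

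The sum of epithelial markers is given beside these values. The 17 general epithelial markers summed to 4846, 5347 and 5661 CPM in cows A, B and C and to 6000, 6367 and 6534 CPM in cows D, E and F, without overlap (exact two-sided permutation p = 0.1, the smallest that 3 against 3 allows). Of the 17, 9 had a log2 fold change above 0 and 8 below. CLDN7, a tight junction claudin, was at 791, 529 and 451 CPM in the 17-OHPC/P4 arm and 1697, 1828 and 661 CPM in the P4 arm. Without CLDN7, a choice made after seeing the data, the sums were 4056, 4818 and 5209 CPM in the 17-OHPC/P4 arm and 4302, 4539 and 5873 CPM in the P4 arm, and the arms overlapped (exact two-sided permutation p = 0.8). On day 4 the epithelial sums were also apart, at 4879 to 5505 CPM in the 17-OHPC/P4 arm and 5723 to 7074 CPM in the P4 arm, and overlapped without CLDN7, while the mean level of the unfolded protein response list overlapped. The part of epithelial content in the day 7 values was not tested, and in such bulk samples fewer cells of a type and less RNA per cell cannot be told apart. The list kept a median between -0.64 and -0.43 in the main fit and under all 15 alternatives.

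Neighbouring steps of the secretory pathway were then listed after the values of TMEM258, SELENOF and CNIH1 had been seen, so their counts are descriptions. Of 25 genes for N-glycosylation and entry into the ER, 21 had values below 0, and the median log2 fold change was -0.48. In the 17-OHPC/P4 arm 15 (60.0%) lay lower without overlap, against 6.8% of all genes. TMEM258, a subunit of the oligosaccharyltransferase, had 19.97, 24.9 and 19.5 CPM in cows A to C, against 51.6, 43.2 and 42.0 CPM in cows D to F (-1.09 ± 0.20, adjusted p = 0.0730). OSTC, another subunit, had 45.5, 41.01 and 44.4 CPM in the 17-OHPC/P4 arm and 121, 103 and 74.4 CPM in the P4 arm (-1.19 ± 0.25, adjusted p = 0.134). DDOST, also of this complex, had 159, 185 and 192 CPM in cows A to C and 315, 299 and 259 CPM in cows D to F (-0.70 ± 0.17, adjusted p = 0.171). Each of these 3 subunits separated the arms. On day 4, 6 of the 25 (24%) lay lower without overlap and 3 (12%) higher, against 15.5% and 15.6% of all genes. On that day 2 of the 25 were called higher and 1 lower in the 17-OHPC/P4 arm (1.46% of all genes lower, 1.3% higher).

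The catalytic subunit STT3A (-0.56 ± 0.24) and the ER entry factors SEC62 (-1.12 ± 0.32), SEC63 (-0.64 ± 0.26) and TRAM1 (-0.68 ± 0.21) also had no overlap. The small subunit OST4 went against them, at 38.5, 42.2 and 36.3 CPM in the 17-OHPC/P4 arm and 26.7, 24.8 and 35.0 CPM in the P4 arm (0.44 ± 0.17). SELENOF, a selenoprotein of the ER, had 104, 94.9 and 86.5 CPM in cows A to C and 216, 152 and 180.0 CPM in cows D to F (-0.94 ± 0.17, adjusted p = 0.0730). Its arms were clearly apart.

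Of 36 genes for transport between ER and Golgi, 28 had values below 0, with a median of -0.21. Of the 36, 14 (38.9%) lay lower without overlap, against 6.8% of all genes. CNIH1, a cargo receptor at ER exit sites, had 26.1, 23.7 and 26.8 CPM in the 17-OHPC/P4 arm and 73.9, 46.7 and 50.1 CPM in the P4 arm (-1.16 ± 0.23, adjusted p = 0.126). The cargo receptor TMED5 had 106, 69.4 and 79.3 CPM in the 17-OHPC/P4 arm, against 306, 208 and 183 CPM in the P4 arm (-1.45 ± 0.30, adjusted p = 0.135). TMED3, of the same family, followed at -1.03 ± 0.22, and the COPI coat subunits COPB1 and COPG1 at -0.60 ± 0.20 and -0.60 ± 0.22. Other coat genes such as COPA, COPB2, SEC23A and SEC13 had log2 fold changes from -0.15 to 0.15 and overlapped. On day 4, 9 of the 36 (25%) lay lower without overlap and 7 (19.4%) higher, against 15.5% and 15.6% of all genes. On that day 3 of the 36 were called, all higher in the 17-OHPC/P4 arm (1.3% of all genes).

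T and NK cell markers had higher values in the 17-OHPC/P4 arm. Of 28 tested, 24 had a log2 fold change above 0, the median was 0.71, and in 9 (32.1%) every cow of the 17-OHPC/P4 arm lay above every cow of the P4 arm, whereas 7.1% of all genes did so. CD3E, a chain of the T cell receptor complex, had 24.1, 25.4 and 23.5 CPM in cows A, B and C and 7.88, 13.6 and 14.5 CPM in cows D, E and F (1.02 ± 0.31, adjusted p = 0.240). CD96, a receptor of T and NK cells, had 18.4, 13.4 and 9.87 CPM in the 17-OHPC/P4 arm and 6.41, 6.38 and 8.09 CPM in the P4 arm (0.996 ± 0.272, adjusted p = 0.211). The CD3 chains CD3D and CD3G, the kinases LCK and ZAP70, CD7 and the cytokine receptor chain IL2RB were also among the 9, and none of the 9 passed the test.

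Other markers of the list overlapped between the arms. The perforin gene PRF1 had 1.95, 5.97 and 6.36 CPM in the 17-OHPC/P4 arm and 6.41, 6.96 and 4.65 CPM in the P4 arm, and NKG7, GZMA, CD4 and CD8A overlapped too. PTPRC, the antigen CD45 carried by all leukocytes, had 41.004, 41.6 and 66.9 CPM in cows A to C, against 65.5, 72.1 and 36.6 CPM in cows D to F (-0.22 ± 0.36, adjusted p = 0.875). The sums over the 28 markers were 203, 235 and 307 CPM in the 17-OHPC/P4 arm and 171, 218 and 168 CPM in the P4 arm, with overlap (exact two-sided permutation p = 0.2). On day 4 none of the 28 lay higher without overlap (15.6% of all genes did), and 6 (21.4%) lay lower without overlap (15.5% of all genes did). Without the day 7 library of cow C the list median was 0.31, with 16 of 28 above 0.

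None of the steroid receptors passed the test. PGR had 28.9, 26.3 and 52.7 CPM in the 17-OHPC/P4 arm and 44.7, 32.0 and 44.4 CPM in the P4 arm, a log2 fold change of -0.17 ± 0.36 (95% interval -0.95 to 0.61, adjusted p = 0.911). The estrogen receptor ESR1 had 306, 419 and 426 CPM in cows A to C and 207, 282 and 541 CPM in cows D to F (0.16 ± 0.31, interval -0.49 to 0.81). The intervals leave room for a difference of about 1 on the log2 scale in PGR, and the values overlapped in both genes. Of 20 steroid receptors and co-chaperones none passed, 13 lay above 0 and 1 (5%) lay higher without overlap, against 7.1% of all genes. That 1 was the chaperone HSP90AB1, at 1260, 1142 and 1080 CPM in the 17-OHPC/P4 arm and 955, 1019 and 936 CPM in the P4 arm.

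Genes known to respond to progesterone in the ruminant endometrium spread widely among the cows of each arm. DGAT2, which completes triglycerides from diacylglycerol, ran from 121 to 625 CPM in the 17-OHPC/P4 arm and from 193 to 863 CPM in the P4 arm (-0.45 ± 0.74). The iron-binding defence protein LTF had 1288, 14190 and 3568 CPM in cows A, B and C, against 1388, 172 and 10828 CPM in cows D, E and F (0.62 ± 1.38). MSTN, the growth inhibitor myostatin, had 42.7, 9.13 and 36.1 CPM in the 17-OHPC/P4 arm and 26.8, 59.2 and 1.90 CPM in the P4 arm, with a log2 fold change of 0.00 ± 1.30. In these genes high and low cows stood in each arm, and the widest interval, that of LTF, ran from -2.34 to 3.58.

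Over the whole list of 30 such genes, 15 lay above 0 and 15 below, with 2 higher and 2 lower without overlap (6.67% each way, near the 7.1% and 6.8% of all genes). ANPEP, a surface peptidase, had 1692, 2375 and 1973 CPM in the 17-OHPC/P4 arm and 7901, 4976 and 3029 CPM in the P4 arm (-1.40 ± 0.63, adjusted p = 0.460). PLAC8A lay higher without overlap at 2.51, 1.97 and 3.12 CPM in the 17-OHPC/P4 arm and 0.860, 0.658 and 0.588 CPM in the P4 arm (1.85 ± 0.77, adjusted p = 0.412). The other fixed genes of this kind also overlapped: TINAGL1 (-0.13 ± 1.21), CRYGS (-0.04 ± 1.02), the glucose transporter SLC2A1 (-0.10 ± 0.55), the prostaglandin synthase PTGS2 (0.14 ± 1.30), the oxytocin receptor OXTR (0.69 ± 0.96) and the receptor co-chaperone FKBP5 (0.18 ± 0.46). The hedgehog ligand IHH (-0.42 ± 0.88) and the stromal factor HAND2 (1.67 ± 1.18), both downstream of PGR in mouse uterus, overlapped too, IHH at 1.55 to 8.54 CPM in the 17-OHPC/P4 arm and 2.29 to 11.1 CPM in the P4 arm.

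Lipid genes leaned lower in the 17-OHPC/P4 arm without a call. Of 31 fatty acid and triglyceride genes 22 lay below 0 and 4 (12.9%) lay lower without overlap, against 6.8% of all genes, with a median of -0.25. That median was -0.61 without the day 7 library of cow A and -0.15 without that of cow C (its values below 0 in 21 of 31 in each). ELOVL5, a fatty acid elongase, had 71.2, 76.0 and 59.5 CPM in cows A, B and C and 171, 171 and 107 CPM in cows D, E and F (-1.12 ± 0.31, adjusted p = 0.211). CPT1A, which admits fatty acids to mitochondria, had 139, 136 and 163 CPM in the 17-OHPC/P4 arm and 364, 283 and 194 CPM in the P4 arm (-0.94 ± 0.39, adjusted p = 0.406), and DGAT1 had -0.83 ± 0.26. In these 3 genes the arms did not overlap. Of 22 cholesterol synthesis genes 18 lay below 0, with a median of -0.38 that came to -0.03 without the day 7 library of cow C. Of the 22, 1 (4.55%) lay lower without overlap, against 6.8% of all genes.

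In several lists single cows stood out. Immediate early genes, which cells switch on within minutes of a stimulus, were led by cow C: FOS had 25.8, 10.7 and 939 CPM in cows A, B and C, against 22.7, 5.89 and 206 CPM in cows D, E and F. The list median of 0.80 became -0.28 without the day 7 library of cow C. Of its 23 genes, 1 (4.35%) lay higher without overlap, against 7.1% of all genes. Stromal markers summed to 400.4, 1006 and 7348 CPM in the 17-OHPC/P4 arm and 4022, 1918 and 348 CPM in the P4 arm, so cows C and D were high and cows A and F low. HBB, the beta globin, reached 4098 CPM in cow C and stayed between 0 and 3.82 CPM in the 5 others.

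Ciliated cell markers summed to 272, 904 and 309 CPM in cows A, B and C and to 170, 98.7 and 806 CPM in cows D, E and F, with cows B and F high. FOXJ1, the master factor of motile cilia, followed at 122 CPM in cow B and 111 CPM in cow F, against 9.01 to 43.9 CPM in the 4 others. The complement genes had their highest sum in cow F, at 11894 CPM against 1852 to 4648 CPM in the 5 others. Their mean level in log2 CPM was close in cows F and C, at 4.87 and 4.80. Of the 23 tested, 17 lay below 0, and 3 (13.0%) lay lower without overlap, against 6.8% of all genes. The list median of -0.53 was 0.01 without the day 7 library of cow F and -1.16 without that of cow C. Proliferation genes had no member apart: MKI67 ran from 9.09 to 66.7 CPM in the 17-OHPC/P4 arm and from 14.9 to 30.2 CPM in the P4 arm. Neutrophil markers, S100A8 among them at 7.74 to 17.8 CPM in the 17-OHPC/P4 arm and 6.61 to 68.1 CPM in the P4 arm, overlapped as well.

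**Figure D4:**
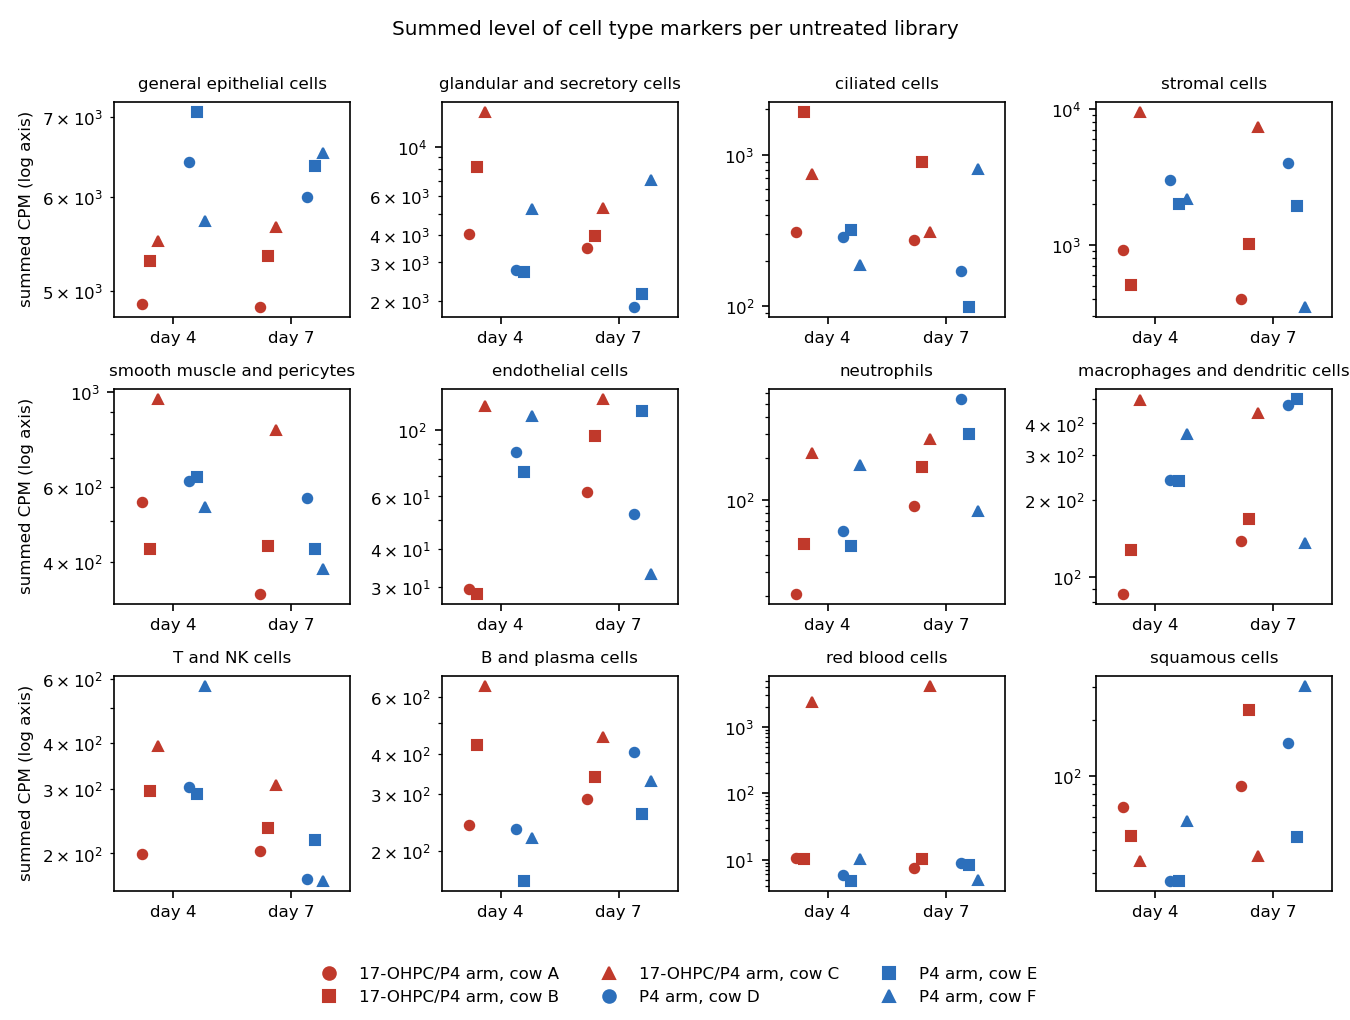
Summed CPM of 12 sets of cell type markers in each untreated library on day 4 and day 7, on log axes, with 17-OHPC/P4 arm cows in red at the left of each pair and P4 arm cows in blue at the right. General epithelial markers are the only set whose summed arms do not overlap on day 7, and without CLDN7 that set overlaps too; cow C holds the red blood cell signal on both days, and cows B and F share the high ciliated values on day 7.

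Ribosomal protein genes had small positive values: all 33 tested lay above 0 with a median of 0.37, yet none separated the arms. The median was 0.12, with 24 of 33 above 0, without the day 7 library of cow B, 0.15 without that of cow E and 0.79 without that of cow F. RPL32 had 487, 933 and 589 CPM in the 17-OHPC/P4 arm and 341, 254 and 571 CPM in the P4 arm (0.79 ± 0.34, adjusted p = 0.447). On day 4, 22 of the 33 lay higher in the 17-OHPC/P4 arm without overlap (15.6% of all genes did). Of 13 mitochondrially encoded genes 12 lay below 0 on day 7. Only 1 (7.69%) lay lower without overlap, near the 6.8% of all genes. It was MT-ATP8, a subunit of the ATP synthase, at 161, 125 and 312 CPM in cows A to C and 533, 619 and 498 CPM in cows D to F (-1.47 ± 0.34, adjusted p = 0.156). The 13 genes summed to 72822, 62261 and 71312 CPM in cows A to C. In cows D to F the sums were 97378, 94823 and 57809 CPM, so cow F of the P4 arm was the lowest. MT-ATP8 overlaps its neighbour MT-ATP6 in the mitochondrial genome, so reads of the pair cannot be fully told apart.

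Interferon-stimulated genes, the response to virus and, in ruminants, to the early embryo, had 23 of 28 values above 0 with a median of 0.37, and 3 (10.7%) lay higher without overlap, near the 7.1% of all genes. IFI27 had 32.2, 18.3 and 7.02 CPM in the 17-OHPC/P4 arm and 6.20, 5.96 and 2.02 CPM in the P4 arm (2.02 ± 0.68, adjusted p = 0.308). Cow A led most of these genes, MX1 among them at 242, 78.9 and 83.3 CPM in the 17-OHPC/P4 arm and 66.8, 129 and 63.5 CPM in the P4 arm. Without the day 7 library of cow A the list median was -0.05.

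Among the remaining lists, each is shown by its member with the smallest p, and none passed the test. Such a member need not follow its list. TIMP3 was lower, but 19 of 25 matrix remodelling genes lay above 0 (median 0.55, and -0.565 without the day 7 library of cow C). IGF2R was lower, but 12 of 18 IGF axis genes lay above 0 (median 0.63, and -0.421 without that library). SLC18A2 was lower, but 8 of 12 glandular and secretory markers lay above 0 (median 0.28). TIMP3, an inhibitor of matrix proteases, had 332, 283 and 274 CPM in the 17-OHPC/P4 arm and 1531, 1161 and 432 CPM in the P4 arm, without overlap (-1.81 ± 0.54, adjusted p = 0.239). SLC26A4, an anion exchanger, had 3.59, 9.22 and 12.3 CPM in cows A to C, against 0.717, 1.005 and 3.36 CPM in cows D to F (2.30 ± 0.77, adjusted p = 0.305). TAP1, which carries peptides to MHC class I, had 127, 125 and 91.1 CPM in the 17-OHPC/P4 arm and 153, 257 and 163 CPM in the P4 arm (-0.74 ± 0.28, adjusted p = 0.362). In these 3 genes no cow of an arm reached the other arm.

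The clock repressor NR1D2 (0.87 ± 0.41), the growth factor receptor IGF2R (-0.79 ± 0.42), the monoamine transporter SLC18A2 (-0.89 ± 0.33), the erythroid membrane protein GYPC (1.21 ± 0.43) and the antimicrobial peptide LAP, at 0 to 0.319 CPM in the 17-OHPC/P4 arm and 0.416 to 6.45 CPM in the P4 arm, also had no overlap. The others overlapped between the arms, as did the fixed gene KRT8: PGRMC2, EBP, PTGER4, BMP2, MCM2, KLF6, TCF7, CFP, CSF3R, CXCL5, EGFL7, FLT3, TNFRSF17, DNAI2, TFF3, ALDH1A2, POSTN, SYNPO2 and SERPINB4. Some of these rested on single cows. ALDH1A2, POSTN and SYNPO2 were high in cow C, at 55.1, 40.05 and 20.001 CPM, where the 5 other cows had at most 2.63, 1.52 and 1.42 CPM. TFF3, a mucosal repair peptide, reached 2743 CPM in cow F, against 80.5 to 652 CPM in the 5 others, and SERPINB4, a squamous protease inhibitor, reached 37.0 CPM in cow D and at most 1.51 CPM elsewhere.

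**Figure D5:**
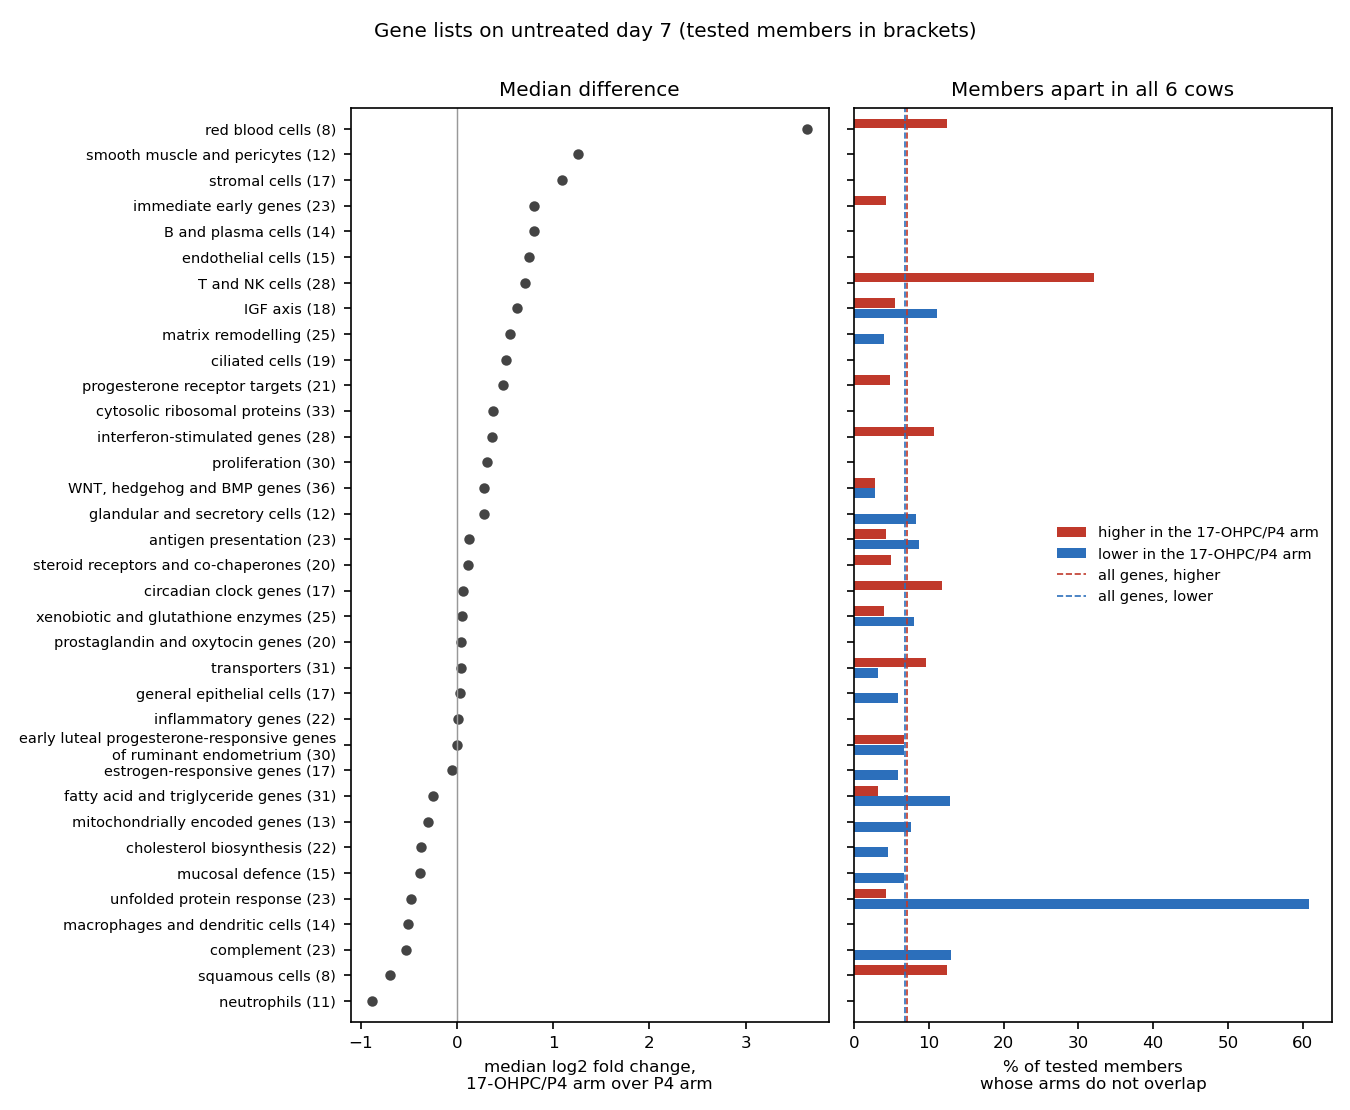
Median log2 fold change (17-OHPC/P4 arm over P4 arm, left) and percent of tested members whose arms do not overlap (right; red higher, blue lower in the 17-OHPC/P4 arm) for 35 gene lists on untreated day 7, with dashed lines at the shares over all genes (7.1% higher, 6.8% lower). The unfolded protein response (60.9% lower) and T and NK cell markers (32.1% higher) reach furthest beyond the dashed lines. Members of a list may move together within a cow, so the shares do not count independent separations.

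More genes were called 3 days earlier. On day 4 of the same cycle 256 genes (1.3%) were higher and 286 (1.46%) lower in the 17-OHPC/P4 arm at an adjusted p under 0.05, against the single gene of day 7, and 2 genes (0.0102%) passed between the treated samples. Of the 542 day 4 calls, 466 had the same sign on day 7 and 220 (40.6%) had p under 0.05 before adjustment in the same direction. Over all genes, 10.6% had p under 0.05 before adjustment on day 7, in either direction. Their median log2 fold change in the day 4 direction was 1.05 on day 4 and 0.36 on day 7. These genes were chosen by their day 4 values, so a smaller difference on day 7 is partly built in. For 272 of the 542 the difference between the days had p under 0.05 before adjustment (7.71% of all genes did), although none passed after it. That difference holds the same day 4 values that chose the genes, so these counts cannot say whether the arms drew closer. The day 4 count ran from 25 to 355 when 1 day 4 library was left out, lowest without cow E and cow F (25 and 33), and the same 3 cows per arm were sampled on both days.

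Some genes kept the arms apart in every sampling. In 186 genes (0.947%), 90 higher and 96 lower, all 9 libraries of 1 arm lay beyond all 9 of the other, and 56 of the 186 had no symbol. Among the genes already named, MDM2, ZMAT2, ANXA7 and BLOC1S3 were so on the higher side, and SLC39A5, the EEF1D row, SELENOF, TMEM88, LUC7L3 and MT-ATP8 on the lower side. The 3 libraries of a cow share the animal, so this count is no repeat of the comparison in other animals.

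Others were picked from these 186 after their values were seen. GABARAP, a protein of the autophagosome membrane, had 407, 427 and 284 CPM in cows A to C on day 7, against 239, 194 and 238 CPM in cows D to F (0.74 ± 0.20, adjusted p = 0.208), and was higher on day 4 as well (1.504, adjusted p = 0.00895). SEMA3B, a secreted semaphorin, had 91.5, 145 and 150.1 CPM in the 17-OHPC/P4 arm and 282, 246 and 208 CPM in the P4 arm (-0.93 ± 0.24, adjusted p = 0.192), and was lower on day 4 (-1.67, adjusted p = 0.00895). ATP6V0D2, a subunit of the proton pump, had 2.03, 0.657 and 1.84 CPM in the 17-OHPC/P4 arm and 0.0717, 0.0693 and 0 CPM in the P4 arm (adjusted p = 0.206). In these 3 genes the arms did not overlap in any sampling.

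Rows without a symbol made up 24.1% of the genes tested but 16 of the 23 genes at an adjusted p under 0.1. ENSBTAG00000047029 had 33.8, 62.4 and 42.9 CPM in the 17-OHPC/P4 arm and 5.02, 3.53 and 12.5 CPM in the P4 arm (2.72 ± 0.44, adjusted p = 0.0690). ENSBTAG00000061739 had 8.64, 11.6 and 8.25 CPM in cows A to C and 3.30, 3.12 and 3.98 CPM in cows D to F (1.45 ± 0.26, adjusted p = 0.0730). ENSBTAG00000077592 lay the other way, at 6.61, 5.19 and 5.35 CPM in the 17-OHPC/P4 arm and 24.3, 20.5 and 11.4 CPM in the P4 arm (-1.71 ± 0.25, adjusted p = 0.0631). All 3 were called on day 4 (adjusted p 0.00434 to 0.00895) and kept the arms apart in all 18 libraries.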

How the data were processed

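The files hold 1 table of counts per gene, deposited by the authors without normalization, for 38001 Ensembl identifiers of which 17715 carry no symbol. Per the submitters' processing notes, cutadapt, FastQC, STAR, featureCounts and DESeq2 were used. The sources used here do not state versions, genome build, annotation, strand setting or how pairs were counted. Libraries were poly(A) selected and read as 2 × 150 bases, per the labels' protocols. Low counts were mostly even (75.8% to 81.3% of counts from 1 to 5 in the 6 day 7 libraries), so independent fragments may be fewer than counts. The reference table matched 0 of the identifiers, and no sequence or coordinate is given.

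Genes were kept with filterByExpr (19638 genes). A mean for each of 6 groups of 3 was estimated from the 18 libraries in edgeR 4.0.16 (R 4.3.3) by the quasi-likelihood F test with TMM factors, with Benjamini-Hochberg adjustment across the 19638 genes. Replicates are separate cows. The letter of a cow pairs its own 3 libraries, so arms are unpaired. The main fit held no term for the cow. SE is the size of the log2 fold change over the root of F. CPM are counts scaled to the TMM-adjusted library size. The fit was tested on simulated data, drawn as independent libraries with the same dispersion for all genes and no effect of the cow. That simulation therefore cannot say what leaving out the cow term does.

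Named genes are the 10 symbols with the smallest p in each direction (no called gene had a symbol), 1 member per list, 18 fixed genes and at most 2 rows without symbol in each direction. The comparison, members, 35 gene lists (761 symbols, 706 with a row) and tests were chosen with earlier results of these data known, and 2 further lists after seeing these values. Alternatives were RLE and upper quartile factors, other filters, fewer libraries, limma 3.58.1 voom with and without the cow as a random block, DESeq2 1.42.0, and each library left out.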

Additional observations from a re-analysis of the deposited data

How the results depend on the processing

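The day 7 count of 1 called gene stayed at 1 with RLE or upper quartile factors, no filter, at least 1 CPM in 3 libraries, limma voom, and the cow as a random block (the replicate block; consensus correlation of a cow's libraries 0.26). It was 0 with only the 6 day 7 libraries or only the 12 untreated libraries, 336 with DESeq2 (117 higher, 219 lower), and 0 to 264 with 1 library left out, highest without cow F (118 higher, 146 lower). The day 4 count of 542 was 504 with RLE, 687 under the random block, 187 without a filter, 2220 with DESeq2 and 25 to 355 with 1 library left out. The difference of the changes gave 0 calls with RLE, without a filter, with each library left out and with the cow as a fixed block (2146 genes at p under 0.05 before adjustment), and 80 with DESeq2. The random block changed no call of a named gene. The causes of these shifts were not tested. The median of all genes moved by less than 0.1 between scalings.

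Of 1153 log2 fold changes of 77 named genes under alternatives, 1055 kept sign and side of the threshold, 49 passed it anew, 5 lost it and 44 changed sign, all of the 44 in genes that were not called. MSTN was -0.040 with RLE, -0.039 with no filter, -0.036 with at least 1 CPM in 3 libraries, -0.038 with the 12 untreated libraries and -0.041 with DESeq2. OXTR was -0.0066 with limma voom and -0.0053 under the random block. With 1 library left out, the ranges that crossed 0 were -0.55 to 0.0034 for PGR, -0.10 to 0.65 for ESR1, -1.02 to 1.16 for OXTR, -1.33 to 0.46 for DGAT2, -0.55 to 1.03 for MSTN, -0.72 to 3.03 for LTF, -1.21 to 0.20 for TINAGL1, -1.58 to 0.96 for CRYGS, -0.91 to 0.18 for SLC2A1, -0.32 to 0.50 for PTGS2, -0.045 to 0.34 for FKBP5, -1.13 to 0.24 for IHH, -0.52 to 2.33 for HAND2, -0.50 to 0.89 for MKI67, -0.12 to 2.71 for FOXJ1, -0.055 to 0.71 for KRT8, -2.19 to 1.74 for TFF3, -2.97 to 0.083 for CXCL5, -0.85 to 4.11 for ALDH1A2, -0.25 to 4.57 for POSTN and -0.71 to 3.81 for SYNPO2.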
